A study of Mus musculus with 12 samples.

Results

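Leukaemic spleens of sick LN3 mice, which develop T-cell acute lymphoblastic leukaemia (T-ALL), were compared with leukaemic thymuses of such mice. The comparison used the 6 LN3 libraries, 3 from spleen and 3 from thymus, of 12 libraries in the series, and covered the 20897 of 54351 listed genes that passed a filter on low counts. All 6 came from C57BL/6 mice that carried the LN3 transgene (genotype "LN3 tg") and were overtly sick. The labels used here name neither the gene that LN3 stands for nor its promoter, and give no ages. The other 6 libraries, 3 of wild-type thymocytes and 3 of CD8+ T cells enriched from wild-type spleen, came from mice without tumours and serve here as reference levels. Both LN3 organs were broken up mechanically on ice and, in contrast to the wild-type spleens, no step that enriched a cell type is described for them, so that normal cells of either organ could be in the sample. The question was which genes differed between the organs, and which of these mark other spleen cells rather than the leukaemia.

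T-ALL is a cancer of immature T-cell precursors that arises in the thymus and spreads to spleen, marrow and other organs. Notch receptor signalling and its target Myc drive growth in many such leukaemias, and chemokine receptors and integrins steer lymphoid cells into organs. The mouse spleen, unlike the thymus, makes red blood cells throughout life and more so when marrow is displaced or the animal is anaemic. It also holds B cells, plasma cells, neutrophils, red pulp macrophages, megakaryocytes and mature T cells, all of which leave their own transcripts in a bulk extract.

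RNA with poly(A) tails was sequenced, and the deposited values are estimated counts per gene. The LN3 libraries held 14341613 to 37273890 counts. Levels are given as CPM, a gene's counts relative to the library total after scaling by the TMM method, and 3 counts, taken as the smallest count told from 0, corresponded to 0.0845 to 0.262 CPM. These limits cover counting error only. The titles number 3 leukaemias in each organ but do not say that each came from a different mouse. The p-values measure the spread between these libraries.

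The T-cell identity of the samples was checked first. Cd3e, a subunit of the T-cell receptor complex, was at 671.9, 612.6 and 423.2 CPM in spleen libraries 1, 2 and 3 and at 627.8, 938.7 and 589.9 CPM in thymus libraries 1, 2 and 3. Notch3 was at 205.1 to 503 CPM in the 6 LN3 libraries, at 80.7 to 155 CPM in wild-type thymocytes and at 1.04 to 3.11 CPM in wild-type CD8+ T cells. Markers of the organs' own stroma varied. Foxn1, the master regulator of thymic epithelium, did not exceed 0.0869 CPM in any LN3 library, and Tlx1, needed to form the spleen, was at 0.0869 to 0.228 CPM in the spleen libraries and at 0 in the thymus libraries. The Tlx1 level of spleen library 1, 0.0872 CPM, lay below 3 counts, which there corresponded to 0.262 CPM. Wild-type CD8 library 1 had Tlx1 at 0.109 CPM. Levels this low do not set spleen stroma apart here. Ccl25, a chemokine of thymic epithelium, was at 7.36 to 17.3 CPM in all 6. It was at 8.20 to 13.1 CPM in wild-type CD8+ T cells from spleen too, so that its level does not set thymic epithelium apart here. The collagen gene Col3a1 was at 0, 0.232 and 0.171 CPM in spleen and 1.85, 12.6 and 10.8 CPM in thymus.

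Some libraries stood apart. The segment Trbv5 held 65.6% to 95.9% of the T-cell receptor beta variable counts in every LN3 library. In the alpha locus, Trav7d-5 and Trav7n-5, near-identical copies between which reads were split evenly, each held 34.1% of the counts in spleen library 2 and 33.7% in thymus library 3, and Trav17 came next in both. The leading alpha segment differed between the 3 libraries of each organ. Xist is expressed from the inactive X chromosome of females. It was at 1.31, 4025 and 2317 CPM in spleen libraries 1, 2 and 3 and at 2.14, 3.89 and 3982 CPM in thymus libraries 1, 2 and 3. Xist was thus not balanced between the organs. The labels number the leukaemias 1 to 3 in each organ, but spleen library 2 and thymus library 2, which share a number, differed in Xist. The labels do not say whether spleen library 2 and thymus library 3 came from the same animal. The entry with the highest count, CT010467.1, took 0.440% of the counts in thymus library 1 and 4.61% to 10.5% in the other 5 LN3 libraries.

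In this comparison 145 genes were higher in spleen (0.694% of the genes tested) and 6 were lower (0.0287%), at a Benjamini-Hochberg adjusted p under 0.05 in edgeR's quasi-likelihood test. The differences among the 145 were large, at least 2-fold in every case, and the spleen and thymus libraries did not overlap for any of the 151 genes. Over all genes tested, the spleen libraries lay entirely above the thymus libraries for 6.22% and entirely below for 5.24%. Of the 145 genes, 103 were highest in spleen library 3 and 118 were lowest in spleen library 2. The calls rest on the small number of libraries: without thymus library 1 or without thymus library 2 no gene passed, with smallest adjusted p-values of 0.0578 and 0.0547, although all 145 stayed higher in spleen at an unadjusted p under 0.05 in both. Without spleen library 1, 2 or 3 the higher calls numbered 48, 206 and 48, and without thymus library 3 they numbered 45.

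Most of these genes were scarcely expressed in the leukaemic thymus. Of the 3900 tested genes under 1 CPM in all 3 thymus libraries, 91 were called higher (2.33%) and 0 lower. These genes had passed the filter through another group, so that their direction was largely fixed. Of the 8481 genes at 10 CPM or more in all 3 thymus libraries, 1 was called higher and 1 lower (0.0236% in either direction). Between those levels, 53 of 8516 genes were called higher and 5 lower.

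**Figure D1:**
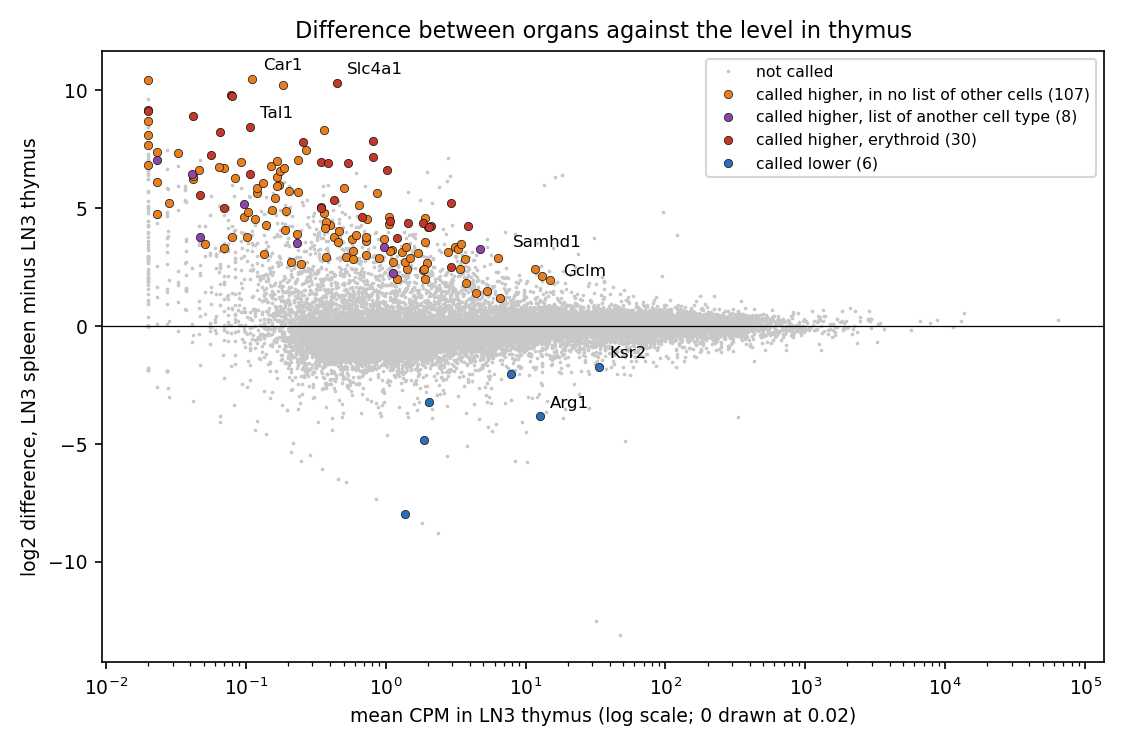
Each point is 1 of 20897 genes, with its mean CPM in the 3 LN3 thymus libraries (log scale, 0 drawn at 0.02) on the x axis and the log2 difference between LN3 spleen and LN3 thymus on the y axis. Coloured points passed the test: 30 erythroid genes, 8 genes of lists for other cell types and 107 further genes higher in spleen, and 6 genes lower in spleen. Nearly all higher genes lie to the left of 10 CPM.

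The strongest group was that of red blood cell precursors. Of 20 listed erythroid marker genes, 19 were tested and 11 were called higher in spleen, with 0 called lower, and the spleen libraries lay above the thymus libraries for 18. Their median log2 difference was 6.41, against -0.05 over all genes tested. Summed over the list, the level was 6484, 2183 and 7470 CPM in spleen libraries 1, 2 and 3 and 53.9, 173 and 35.8 CPM in thymus libraries 1, 2 and 3. All 3 spleen sums exceeded all 3 thymus sums, and spleen library 2 was the lowest of the 3 in spleen.

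The sequence before the start of these genes was read for a motif of their best known regulator. GATA-1, the main transcription factor of red cell precursors, binds sequences of the form AGATAA, and this hexamer was searched on both strands (TTATCT on the other) in the 250 bases before the start site in RefSeq (GRCm38.p6). It was present in 9.99% of the 32851 promoters listed. Of the 145 called genes, 113 matched the promoter table and 25 (22.1%) held it before at least 1 of their starts. Of the 12773 tested genes that matched, 1093 did (8.56%). Among 27 called genes of the erythroid roles described below, 21 matched and 6 held it. A match in letters is a description and shows no binding. The 2 of these windows that overlap no annotated exon are shown whole, with the hexamer in capitals. They lie at chr4:115056176-115056425 (plus strand) before Tal1, a transcription factor of blood stem and red cell precursors, and at chr4:134864286-134864535 (plus strand) before Rhd, a Rhesus blood group protein.
Tal1: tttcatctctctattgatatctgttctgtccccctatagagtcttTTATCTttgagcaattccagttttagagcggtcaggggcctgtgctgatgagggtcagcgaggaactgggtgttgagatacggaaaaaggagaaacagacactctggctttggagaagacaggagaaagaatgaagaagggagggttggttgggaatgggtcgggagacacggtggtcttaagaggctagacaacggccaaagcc
Rhd: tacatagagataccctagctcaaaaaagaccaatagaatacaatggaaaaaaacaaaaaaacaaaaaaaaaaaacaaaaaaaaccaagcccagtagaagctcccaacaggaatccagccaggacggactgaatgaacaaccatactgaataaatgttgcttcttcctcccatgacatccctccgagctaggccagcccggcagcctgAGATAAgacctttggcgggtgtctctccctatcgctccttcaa
For the other 4 genes the 30 bases around the hexamer are shown, at chrX:150547319-150547348 (plus strand) for Alas2, chr2:121037086-121037115 (minus strand) for Epb42, chr9:21029377-21029406 (plus strand) for Icam4 and chr6:41704364-41704393 (minus strand) for Kel.
Alas2: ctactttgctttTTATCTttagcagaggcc
Epb42: gtctctatttccTTATCTcgttcaaacaga
Icam4: cagggtgccttcTTATCTcctgcggccagc
Kel: cctgagaaactaAGATAAaagaggaggtga
The hexamer began 86 bases before the start in Alas2, 226 in Epb42, 43 in Icam4 and Rhd, 56 in Kel and 205 in Tal1.

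The products of the called erythroid genes cover the red cell from its membrane to its gene control. To give the count by role, 53 textbook erythroid genes were sorted by function after the values had been seen, and 27 of the 52 tested were called higher and 0 lower. Because these genes were gathered with the results in view, the counts describe and do not support.

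The membrane skeleton and the proteins that anchor it had 6 of 9 genes called higher, with log2 differences of 4.21 to 10.3 among the called. Slc4a1 (chromosome 11, 102348824 to 102366203, GRCm38), the band 3 anion exchanger of the red cell membrane, was at 389, 301 and 1046 CPM in the 3 spleen libraries and at 0.336, 0.496 and 0.507 CPM in the 3 thymus libraries. That is a log2 difference of 10.3 (SE 1.82, adjusted p = 0.0333). Add2, the adducin beta chain that caps actin at spectrin junctions, was at 52.1, 14.8 and 101 CPM against 0.21, 0.331 and 0.225 CPM (log2 difference 7.80, adjusted p = 0.0243). For both genes spleen library 3 was the highest, and every spleen library exceeded every thymus library by more than 10-fold.

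Blood group proteins, the surface antigens of red cells, were called higher in 9 of 10 genes, including Rhag, Rhd, Kel, Xk and Ermap. Aqp1, the water channel that carries the Colton antigen, was at 173, 58.2 and 323 CPM against 0.252, 1.08 and 1.10 CPM (log2 difference 7.85, adjusted p = 0.0345). The member that was not called was Gypc, which is not restricted to red cells.

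Of 10 transcription factors of erythroid cells, 6 were called higher. Tal1 (chromosome 4, 115056426 to 115071755) was at 44.5, 13.7 and 64.6 CPM in spleen and at 0.126, 0.0827 and 0.113 CPM in thymus (log2 difference 8.46, SE 0.987, adjusted p = 0.00624). Klf1, the factor that switches on adult beta globin, was at 39.2, 8.31 and 42.5 CPM against 1.05, 1.57 and 1.72 CPM (log2 difference 4.37, adjusted p = 0.0376). Gata1, which encodes GATA-1 itself, was at 23.5, 6.66 and 38.0 CPM against 1.34, 2.23 and 3.69 CPM, and its groups did not overlap, but it did not pass the test (log2 difference 3.22, 95% interval 1.52 to 4.92, adjusted p = 0.0961). Tal1 is also a known T-ALL oncogene, and its level in thymus rested on 8 counts over the 3 libraries.

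Genes for haem synthesis and handling were called higher in 3 of 12, led by Alas2 (chromosome X, 150547375 to 150570638), the enzyme that starts haem synthesis in red cell precursors. Alas2 was at 85.4, 55.4 and 188 CPM in spleen and at 4.66, 2.65 and 1.52 CPM in thymus (log2 difference 5.22, SE 1.05, adjusted p = 0.0421). Steps of the same pathway that all cells run, such as Urod and Uros, were not called. Of 4 iron uptake genes 1 was called. Tfr2, the transferrin receptor largely limited to liver and red cell precursors, was at 13.95, 3.10 and 20.2 CPM against 0.168, 0.0827 and 0.789 CPM (log2 difference 5.003, adjusted p = 0.0452). Tfrc, the receptor used by all dividing cells, was at 287, 399 and 906 CPM against 501, 453 and 241 CPM, and the groups overlapped (log2 difference 0.41, adjusted p = 0.899).

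Haemoglobin itself had the largest counts but did not pass. Hbb-bs, an adult beta globin, was at 1808, 611 and 2139 CPM in spleen and at 3.32, 48.9 and 2.03 CPM in thymus (log2 difference 6.41, 95% interval 2.25 to 10.6, adjusted p = 0.218). Hba-a1, an alpha globin, was at 1950, 444 and 1482 CPM against 2.35, 44.3 and 1.83 CPM (log2 difference 6.34, adjusted p = 0.234). Thymus library 2 was the highest of the thymus libraries for both. The paired globin genes are near-identical copies, so the split of reads between copies is an estimate. With the 6 LN3 libraries alone the adjusted p was 0.208 for Hbb-bs and 0.259 for Hba-a1. In the wild-type libraries haemoglobin varied more widely than the other markers, though both ranked the libraries of each group in the same order. The 4 listed haemoglobin genes summed to 3869, 9.75 and 1469 CPM in wild-type thymocytes, where the 15 other erythroid markers summed to 84.3, 20.6 and 45.2 CPM. In wild-type CD8 libraries 1, 2 and 3 haemoglobin summed to 127.9, 579.5 and 32.6 CPM. The other erythroid markers summed there to 34.15, 347.5 and 31.44 CPM. Without haemoglobin, the erythroid markers summed to 1009, 652 and 2371 CPM in the LN3 spleen and to 45.7, 35.4 and 29.9 CPM in the LN3 thymus. The globin variant Hbq1b had no count in any thymus library and was at 1.74, 2.23 and 5.24 CPM in spleen, at least 20.1-fold higher when each thymus library is set to 3 counts (adjusted p = 0.0283).

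Genes in none of the lists of other cells numbered 126 of the 145, and red cell genes were among those with the largest differences. The 10 with the largest differences and at least 5 CPM in spleen were Car1, Car2, Ypel4, Tal1, Tmcc2, Bex4, Aqp1, Add2, Ces2g and Garem1, with log2 differences of 7.39 to 10.5. Car1 (chromosome 3, 14766216 to 14808368), carbonic anhydrase 1, among the most abundant red cell proteins after haemoglobin, was at 140, 34.9 and 341 CPM in spleen and at 0.168, 0.0827 and 0.0845 CPM in thymus (log2 difference 10.5, SE 1.14, adjusted p = 0.00624). Car2, another red cell carbonic anhydrase encoded on the same chromosome, was at 207, 60.8 and 354 CPM against 0, 0.331 and 0.225 CPM (log2 difference 10.2, adjusted p = 0.00706). Tmcc2, which encodes a membrane protein, was at 39.3, 115 and 212 CPM against 0.252, 0.331 and 0.507 CPM (log2 difference 8.32, adjusted p = 0.00624). Ces2g, a carboxylesterase gene, was at 38.2, 17.1 and 101 CPM against 0.084, 0.248 and 0.479 CPM (log2 difference 7.49, adjusted p = 0.0151). The counts in thymus were too few for a firm ratio in 3 of the 10: the 3 thymus libraries together gave a ratio of 643 for Ypel4 (95% counting interval 178 to 5313), of 302 for Bex4 (53.8 to 11980) and of 159 for Garem1 (43.6 to 1319).

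**Figure D2:**
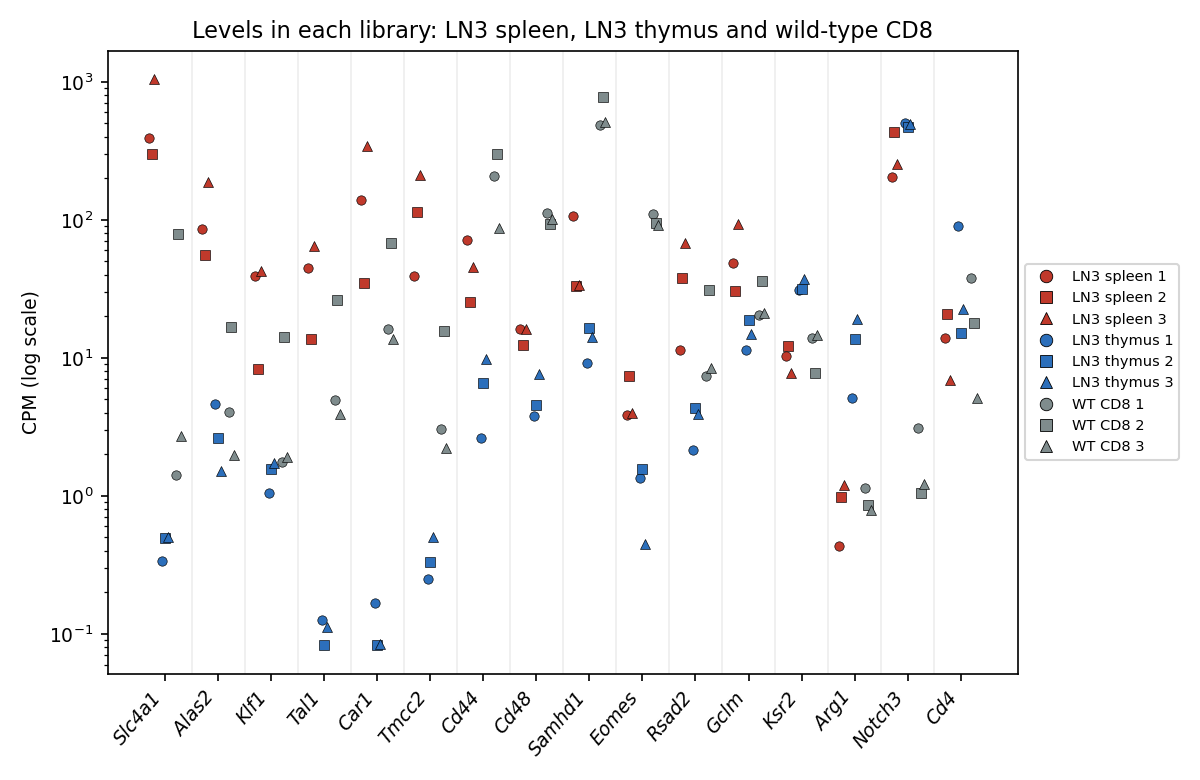
CPM on a log scale of 16 genes in each of 3 LN3 spleen, 3 LN3 thymus and 3 wild-type CD8+ T-cell libraries; each symbol is 1 library. From Slc4a1 to Tmcc2 the spleen libraries lie far above the thymus libraries and CD8 library 2 lies above CD8 libraries 1 and 3, whereas Cd48, Samhd1 and Eomes are higher in all CD8 libraries than in either LN3 group, and Ksr2 and Arg1 are lower in LN3 spleen.

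The wild-type CD8+ libraries, which were prepared from spleen, differed among themselves in their content of other spleen cells. They entered the filter and the estimate of spread behind the calls, but not the contrast: with the 6 LN3 libraries alone 107 genes were called higher, 82 of them among the 145. The erythroid markers without haemoglobin summed to 34.2, 348 and 31.4 CPM in CD8 libraries 1, 2 and 3. Of all genes tested, 215 (1.03%) were at least 3-fold higher in CD8 library 2 than in both other CD8 libraries, and among the 145 genes called higher in LN3 spleen the number was 42 (29.0%). These 42 include 31 genes that are in no list of other cells, such as Car1, Car2, Tal1, Tmcc2, Ces2g, Add2 and Garem1. With a 2-fold rule the number was 55. The pattern is not particular to red cells, since 14 of 15 erythroid markers other than haemoglobin and 11 of 15 neutrophil markers had it. A further 16 of the 145 (11.03%, against 3.54% of all genes) were at least 3-fold higher in both CD8 libraries 1 and 2 than in library 3, a pattern shared by 14 of 15 red pulp macrophage, 12 of 20 B-cell, 11 of 15 dendritic and class II, 10 of 15 monocyte and 5 of 9 plasma cell markers. Itgad, an integrin alpha chain of red pulp macrophages, was among them, at 34.5, 17.98 and 31.0 CPM in LN3 spleen and 0.21, 0.579 and 2.39 CPM in LN3 thymus (log2 difference 4.62, adjusted p = 0.0347). The rule for these patterns was chosen after the values had been seen, and no test was made of the shares.

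Another 51 of the 145 genes (35.2%, against 62.1% of all genes) had similar levels in the 3 CD8 libraries, within 3-fold. Genes that lay higher in all 3 CD8 libraries than in all 3 LN3 spleen libraries numbered 26 of the 145. Over all 20897 genes tested they numbered 6427 (30.8%), a larger share than among the 145, so that this trait does not mark the called genes. Samhd1, which degrades the nucleotides needed for DNA synthesis, was at 107, 33.1 and 33.7 CPM in LN3 spleen, at 9.11, 16.4 and 14.1 CPM in LN3 thymus and at 486, 774 and 510 CPM in CD8+ T cells (log2 difference between the LN3 organs 2.13, adjusted p = 0.0472). Cd48, a surface ligand found on most mature lymphocytes, was at 16.3, 12.5 and 16.3 CPM in LN3 spleen, at 3.78, 4.55 and 7.63 CPM in LN3 thymus and at 112, 93.0 and 102 CPM in CD8+ T cells (log2 difference 1.49, adjusted p = 0.0452). Eomes, a transcription factor of cytotoxic and memory lymphocytes and a listed NK cell marker, was at 3.84, 7.33 and 3.99 CPM against 1.34, 1.57 and 0.451 CPM (log2 difference 2.24, adjusted p = 0.0461) and at 91.1 to 111 CPM in CD8+ T cells. The 15 markers of mature T cells, in contrast, had no called member and their sums overlapped, at 1139, 1369 and 1311 CPM in LN3 spleen and 529, 1042 and 1470 CPM in LN3 thymus. In bulk RNA, a larger number of cells of a type cannot be told apart from more RNA of a gene per cell.

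Of 11 tested platelet and megakaryocyte genes, 4 were called higher, Ppbp, Tubb1, Itga2b and Gp5, and 7 were not called. The list's median log2 difference was 3.37, and 2.53 with the member that had no thymus count set at its bound. Ppbp, the platelet basic protein, was at 5.49, 4.20 and 3.47 CPM in spleen and at 0.042, 0 and 0.0282 CPM in thymus, where it had so few counts that the ratio of 151 has wide limits from counting error (95% interval 41.4 to 1254, adjusted p = 0.0342). Tubb1, the beta tubulin of platelets, was at 5.49, 2.69 and 3.19 CPM against 0.126, 0.0827 and 0.0845 CPM (log2 difference 5.18, adjusted p = 0.0369). In sum, the list was at 44.2, 32.8 and 32.1 CPM in spleen and 7.77, 7.28 and 11.6 CPM in thymus, low levels that did not overlap.

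Of 6 basophil and mast cell markers, 2 were called. Gata2, a factor of blood progenitors, mast cells and basophils, was at 6.71, 1.39 and 1.42 CPM against 0.042, 0.0827 and 0 CPM, a ratio of 84.3 (95% interval from counting error 22.9 to 702, adjusted p = 0.0248). Ms4a2, the beta chain of the IgE receptor, was at 1.48, 0.521 and 0.569 CPM against 0.084, 0 and 0.0563 CPM (log2 difference 3.80, adjusted p = 0.0347). In wild-type CD8+ T cells Ms4a2 was at 5.79, 3.195 and 3.44 CPM, above every LN3 spleen library. Which cells account for the difference in Ms4a2 was not tested. Kit, the stem cell factor receptor of progenitors, early red cells and mast cells, was called as well, at 24.6, 9.82 and 15.8 CPM against 2.65, 3.47 and 2.65 CPM (log2 difference 2.52, adjusted p = 0.0342).

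Neutrophil genes had large differences that did not pass the test over all genes. All 15 listed members had a higher mean in spleen at an unadjusted p under 0.05, the spleen and thymus libraries did not overlap for 14, and the median log2 difference was 5.33, but 0 were called. Ngp, a granule protein of maturing neutrophils, was at 516, 74.4 and 73.2 CPM in spleen and at 0.756, 6.29 and 1.55 CPM in thymus (log2 difference 6.35, SE 1.67, adjusted p = 0.139). S100a9, a calcium-binding protein of neutrophils and monocytes, was at 410, 50.8 and 105 CPM against 0.84, 5.71 and 1.66 CPM (log2 difference 6.18, 95% interval 3.25 to 9.10, adjusted p = 0.0628). The list summed to 2324, 299 and 456 CPM in spleen and 8.69, 39.9 and 22.8 CPM in thymus, with spleen library 1 the highest.

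B-cell and plasma cell genes were likewise highest in spleen library 1. Of 20 B-cell markers, 1 was called, Cd22, an inhibitory receptor of B cells, at 96.4, 25.02 and 15.9 CPM in spleen and 4.41, 4.798 and 4.98 CPM in thymus (log2 difference 3.27, SE 0.633, adjusted p = 0.0360). The other 19 were not called, and for 16 of the 20 the spleen libraries lay above the thymus libraries. All 20 had a positive difference, with a median log2 difference of 3.16, and 18 had an unadjusted p under 0.05 in edgeR. The list sums, which include the IgM heavy chain Ighm, overlapped, at 7205, 1055 and 550 CPM against 650, 517 and 422 CPM. Igha, the heavy chain of the antibody class IgA, was at 7934, 258 and 141 CPM in spleen and at 134, 129 and 27.3 CPM in thymus (log2 difference 4.85, 95% interval 0.61 to 9.08, adjusted p = 0.455). Jchain, which joins IgA and IgM units, was at 1113, 97.6 and 44.8 CPM against 47.5, 25.6 and 20.0 CPM, with overlap (log2 difference 3.75, adjusted p = 0.404). Of the 9 plasma cell markers tested, 0 were called, although 8 had an unadjusted p under 0.05 in edgeR. The plasma cell sums did not overlap, at 9980, 811 and 561 CPM in spleen and 349, 354.5 and 225 CPM in thymus.

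Markers of macrophages and antigen-presenting cells were detected in both organs. None of 15 red pulp macrophage markers, 15 monocyte and myeloid markers or 15 dendritic cell and class II genes was called, by edgeR at an adjusted p under 0.05, and 4, 3 and 7 of them had an unadjusted p under 0.05. Of the 15 red pulp macrophage markers, 11 had a positive difference, and the list sums overlapped. Their median log2 difference was 1.22, with a range of -0.94 to 3.03. Slc40a1, the iron exporter through which red pulp macrophages return iron from old red cells, had the largest difference of the 15. It was at 58.3, 32.4 and 49.1 CPM in spleen and at 4.96, 3.64 and 8.28 CPM in thymus. The groups did not overlap for Slc40a1 (log2 difference 3.03, 95% interval 1.60 to 4.47, adjusted p = 0.0601). Lyz2, the lysozyme of myeloid cells, was at 316, 26.9 and 44.7 CPM against 17.6, 78.9 and 126 CPM, and Mpeg1, a pore protein of macrophages, at 142, 70.8 and 62.2 CPM against 12.6, 34.0 and 102 CPM, and both overlapped. Cd74, the invariant chain of class II molecules, was at 856, 260 and 139 CPM against 47.8, 120 and 116 CPM (log2 difference 2.14, adjusted p = 0.409), and H2-Aa, a class II chain, at 316, 83.2 and 52.8 CPM against 15.0, 48.3 and 43.0 CPM (log2 difference 2.09, adjusted p = 0.467). Thymus library 1 was the lowest of the 6 for all 3 list sums. The part of any of these cell types in the level of a gene outside the lists was not tested.

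**Figure D3:**
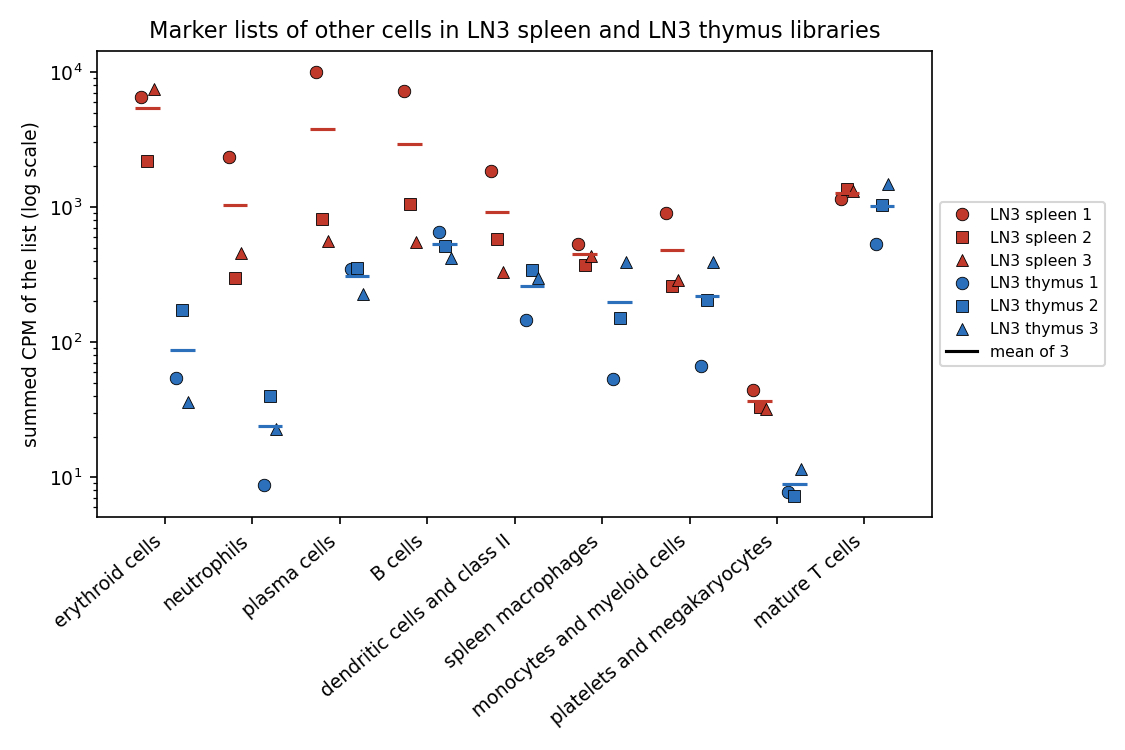
Summed CPM (log scale) of 9 marker lists in the 3 LN3 spleen and 3 LN3 thymus libraries; symbols are libraries and short bars are means of 3. The erythroid, neutrophil, plasma cell and platelet sums of every spleen library lie above those of every thymus library. The B-cell, macrophage, monocyte, dendritic and mature T-cell sums overlap.

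A fit that held the summed level of B-cell, erythroid, macrophage, monocyte and neutrophil markers constant, as a covariate, called 0 genes higher and 0 lower (527 genes had an unadjusted p under 0.05, in edgeR). All 145 genes kept a positive difference in it, and 133 kept an unadjusted p under 0.05. With the erythroid markers other than haemoglobin as the covariate, 0 genes were called, 144 of the 145 kept a positive difference and 63 an unadjusted p under 0.05. The covariate follows the organ so closely that the difference between organs and the content of other cells cannot be told apart in these libraries, and the loss of calls does not assign a gene to either. Called members of these marker lists are themselves part of the covariate, so that their fall was partly built in.

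Few genes well expressed in the leukaemic thymus were called. Of the 8481 genes at 10 CPM or more in all 3 thymus libraries, the middle 50% had log2 differences of -0.12 to 0.25. The 1 called higher among them, Gclm (chromosome 3, 122245557 to 122270732), the regulatory subunit of the enzyme that starts glutathione synthesis, was at 49.0, 30.4 and 93.3 CPM in spleen and 11.3, 18.9 and 14.9 CPM in thymus (log2 difference 1.94, SE 0.401, adjusted p = 0.0490). It was highest in spleen library 3, as were 103 of the 145. Its call was kept in 7 of 21 alternatives. The log2 difference of Gclm was 1.38 with the other-cell markers as covariate and 0.45 with the erythroid markers other than haemoglobin. Which cells account for its difference was not tested. In simulated counts with the spread of these libraries, the test recovered 4% of genes changed 2-fold, 56% of those changed 4-fold, 78% at 8-fold and 92% at 16-fold, with 7 false calls. The changed genes were drawn at random from all but the lowest expressed genes, and 2-fold changes among them were mostly not detected. The rate for well expressed leukaemia genes alone was not measured.

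The genes tied to Notch-driven leukaemia were not called. Notch1 was at 1857, 2908 and 1156 CPM in spleen and 2267, 2798 and 1950 CPM in thymus (log2 difference -0.24, 95% interval -1.05 to 0.56). Notch3 was at 205, 433 and 252 CPM against 503, 470 and 497 CPM, below the thymus libraries in all 3 spleen libraries (log2 difference -0.72, 95% interval -1.58 to 0.13, adjusted p = 0.689). Myc was at 322, 342 and 318 CPM against 245, 403 and 267 CPM (log2 difference 0.10, 95% interval -0.52 to 0.72). The Notch pathway list had 0 of 17 genes called and a median log2 difference of -0.23, and the list of Myc and its partners had 0 of 11 and a median of 0.02.

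The receptors for insulin-like and platelet-derived growth factors, which transmit survival signals, did not pass either. Igf1r was at 142, 341 and 100 CPM in spleen and 233, 184 and 323 CPM in thymus (log2 difference -0.35, 95% interval -1.16 to 0.47). Pdgfrb was at 302, 489 and 690 CPM against 472, 760 and 663 CPM (log2 difference -0.36, 95% interval -1.10 to 0.39). Their intervals leave room for a difference of 2-fold in the direction of thymus. Igf1, the ligand, made largely by stromal and myeloid cells, was at 4.71, 4.34 and 3.99 CPM against 0.63, 1.08 and 9.07 CPM (log2 difference 0.25, 95% interval -1.74 to 2.25).

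None of 15 genes of immature, double-positive thymocytes was called, by edgeR at an adjusted p under 0.05, and 3 had an unadjusted p under 0.05. Their median log2 difference was -0.53, and 3 of the 15 were positive. Cd4, a coreceptor of the T-cell receptor, was at 13.95, 20.7 and 6.95 CPM in spleen and 90.8, 15.1 and 22.4 CPM in thymus, highest in thymus library 1 (log2 difference -1.62, adjusted p = 0.564). Cd8a, the other coreceptor, was at 235, 143 and 154 CPM against 265, 462 and 163 CPM (log2 difference -0.74, adjusted p = 0.677). Rag1, the recombinase that assembles T-cell receptor genes, was at 235, 113 and 427 CPM against 924, 404 and 211 CPM (log2 difference -0.99, adjusted p = 0.791). The groups overlapped for all 3 genes.

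Receptors that guide lymphocytes into and out of organs gave no call among 20, with a median log2 difference of 0.58. Ccr7, the receptor that draws cells to lymph nodes, was at 45.4, 51.7 and 30.6 CPM in spleen and 3.40, 20.8 and 60.0 CPM in thymus (log2 difference 0.60, 95% interval -0.92 to 2.12). Ccr9, a receptor for the thymic and gut chemokine CCL25, was at 38.7, 99.2 and 244 CPM against 41.2, 21.3 and 149 CPM (log2 difference 0.85, 95% interval -0.60 to 2.30). Cxcr4, the receptor for marrow chemokine CXCL12, was close to even, at 168, 170 and 225 CPM against 152, 218 and 173 CPM (log2 difference 0.05, 95% interval -0.56 to 0.66). S1pr1, needed for exit from the thymus, was at 40.7, 5.68 and 5.24 CPM against 2.06, 10.7 and 17.4 CPM (log2 difference 0.76), high in spleen library 1 alone. Cxcr5, the B-cell follicle receptor, had the largest difference but for 1 of these 20, at 37.7, 8.75 and 3.30 CPM against 1.26, 2.73 and 0.817 CPM (log2 difference 3.41, adjusted p = 0.0688). It was likewise highest in spleen library 1, as were the B-cell, plasma cell, neutrophil, monocyte and dendritic sums. The part of these cells in its level was not tested.

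**Figure D4:**
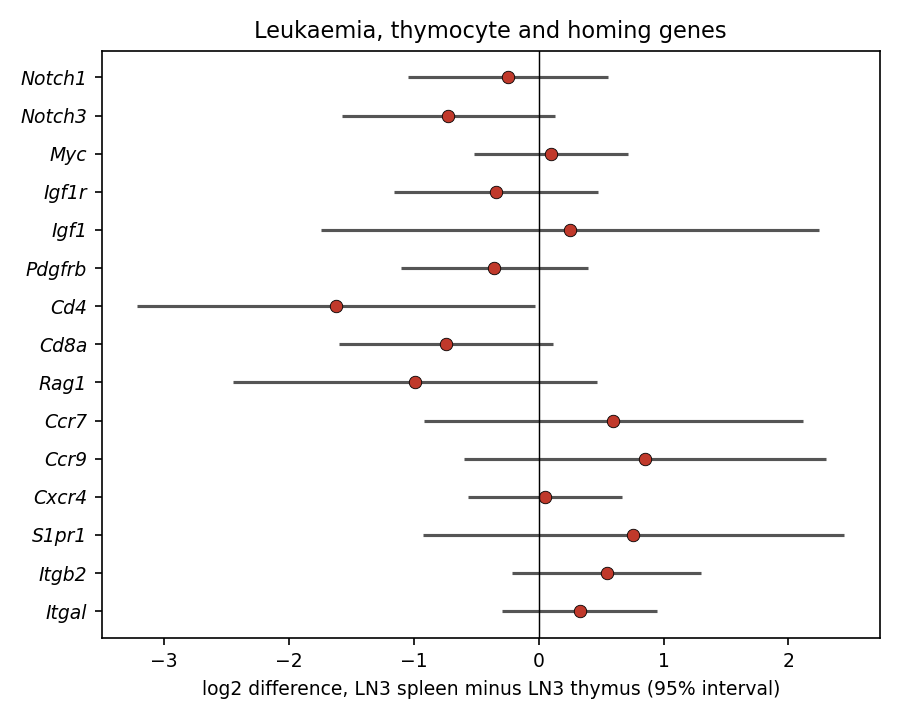
Log2 difference between LN3 spleen and LN3 thymus (points) with 95% intervals (lines) for 15 leukaemia, thymocyte and homing genes; values above 0 are higher in spleen. None of the 15 passed the test, and the interval of every gene but Cd4 includes 0.

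Adhesion molecules gave 1 call. The integrin chains Itgal and Itgb2, which form LFA-1, gave log2 differences of 0.33 (95% interval -0.29 to 0.95) and 0.54 (-0.21 to 1.30), and of 15 integrin genes 0 were called. Cd44, a receptor for hyaluronan on activated and progenitor lymphocytes and on many other cells, was the single called member of 18 adhesion and guidance genes. It was at 70.8, 25.3 and 45.3 CPM in spleen, at 2.65, 6.62 and 9.74 CPM in thymus and at 206, 300 and 87.9 CPM in wild-type CD8+ T cells (log2 difference 2.89, SE 0.541, adjusted p = 0.0347). Since other spleen cells also express Cd44, the cells that account for the difference cannot be told apart in bulk RNA.

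Among 20 interferon-response genes 1 was called. Rsad2, which encodes the antiviral protein viperin, was at 11.4, 37.8 and 67.5 CPM in spleen and 2.14, 4.30 and 3.91 CPM in thymus (log2 difference 3.50, SE 0.680, adjusted p = 0.0363). The list's median log2 difference was 0.09, and its other members did not pass. In wild-type CD8+ T cells Rsad2 was at 7.38, 31.0 and 8.45 CPM, highest in library 2. The sums of the erythroid, neutrophil, monocyte and interferon-response lists were highest in that library as well. Which cells account for the difference in Rsad2 was not tested.

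Cell division genes had higher means in spleen but did not pass. All 20 tested G2/M genes had a positive difference, with a median of 0.59 and a range of 0.30 to 0.81, and 0 were called, with 0 at an unadjusted p under 0.05. Mki67, which marks dividing cells, was at 1392, 1593 and 2169 CPM in spleen and 1026, 960 and 1357 CPM in thymus (log2 difference 0.62, 95% interval -0.60 to 1.85). Top2a, the topoisomerase of mitosis, was at 991, 1050 and 1484 CPM against 736, 836 and 864 CPM (log2 difference 0.53, 95% interval -0.37 to 1.44). The G2/M sums did not overlap, at 5209, 4925 and 7656 CPM in spleen and 3528, 4143 and 4349 CPM in thymus. Genes of DNA replication (24 of 24 positive, median 0.36) and ribosome biogenesis (18 of 18 positive, median 0.29) had 0 calls, and their sums overlapped. Red cell precursors divide too, and spleen library 3, with the highest erythroid sum, had the highest G2/M sum, and their part in these differences was not tested.

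Of 6 further programmes none had a call. The median log2 differences were -0.27 for 21 genes of T-cell receptor signalling, -0.14 for 16 JAK-STAT genes, -0.32 for 18 hypoxia genes, -0.21 for 18 glycolysis genes, 1.21 for 16 cytotoxic effectors and 0.43 for 16 genes of class I presentation. The JAK-STAT sums lay lower in all 3 spleen libraries, at 1002, 1075 and 1233 CPM against 1304, 1301 and 1386 CPM. Il2ra, the interleukin-2 receptor alpha chain, a member of the list, was at 41.2, 42.5 and 352 CPM against 441, 218 and 184 CPM, with overlap (log2 difference -0.95, 95% interval -2.45 to 0.54).

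**Figure D5:**
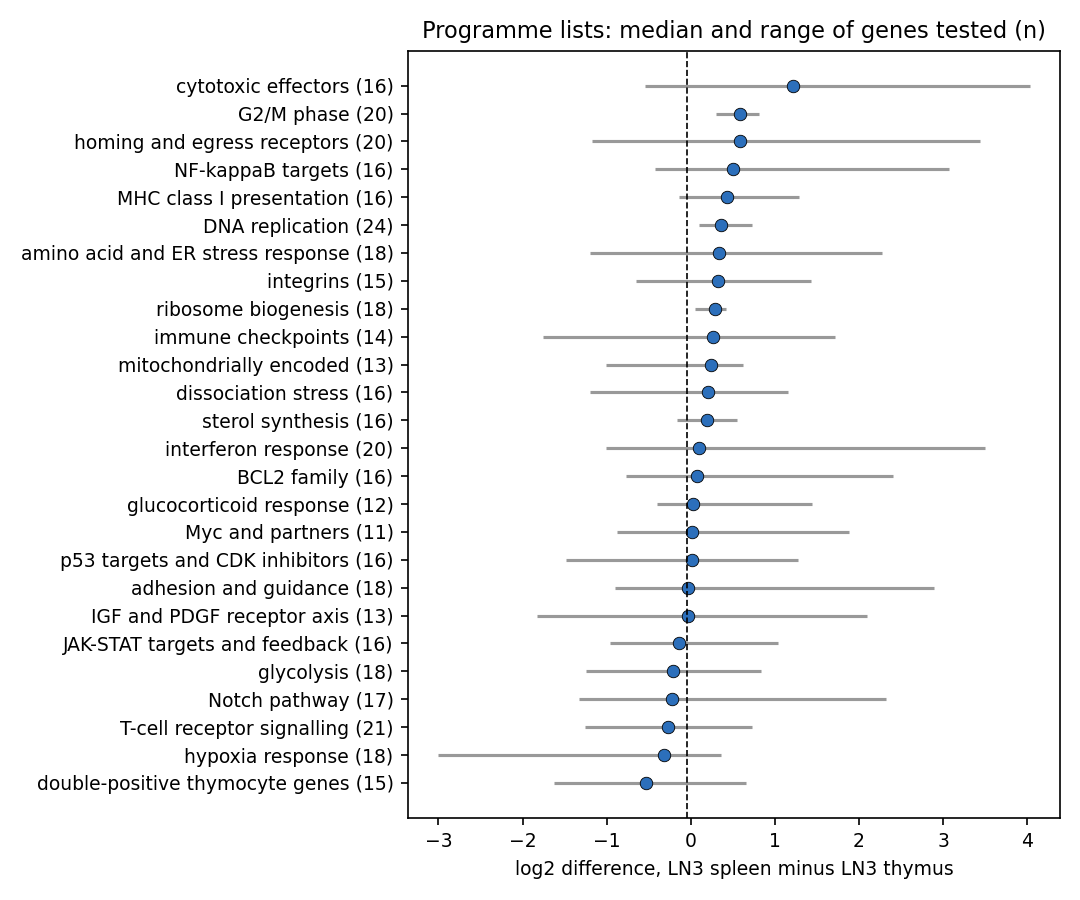
Median (points) and range (lines) of the log2 difference between LN3 spleen and LN3 thymus over the tested members of 26 programme lists, with the number of genes tested; the dashed line is the median of all genes tested, -0.05. The medians run from -0.53 for double-positive thymocyte genes to 1.21 for cytotoxic effectors, and the G2/M, DNA replication and ribosome biogenesis lists are wholly above 0.

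The 6 genes lower in spleen were fewer and of another kind. Arg1 (chromosome 10, 24915221 to 24927484), the arginase of the urea cycle and of some macrophages, was at 0.436, 0.985 and 1.20 CPM in spleen and 5.08, 13.7 and 19.2 CPM in thymus (log2 difference -3.82, SE 0.571, adjusted p = 0.0151). In all 6 wild-type libraries Arg1 was at 1.15 CPM or less, so that the LN3 thymus was the group apart. Ksr2 (chromosome 5, 117414000 to 117775003), a scaffold of the Ras and MAP kinase cascade, was at 10.4, 12.2 and 7.80 CPM against 31.0, 31.4 and 37.3 CPM (log2 difference -1.71, SE 0.354, adjusted p = 0.0490). Ksr2 was the 1 lower gene at 10 CPM or more throughout the thymus libraries, and its wild-type levels were 3.99 to 8.58 CPM in thymocytes and 7.72 to 14.6 CPM in CD8+ T cells. The other 4 fell outside the rule for naming genes and were chosen after their values were seen. Mgp, the matrix Gla protein of cartilage and stroma, was at 0.0872, 0.0869 and 0 CPM against 0.504, 2.98 and 2.14 CPM (log2 difference -4.81, adjusted p = 0.0347). Dcn, which encodes the matrix protein decorin and was not called, was at 0, 0.203 and 0.0569 CPM against 0.336, 2.98 and 8.17 CPM (log2 difference -5.07, adjusted p = 0.0989). The stroma and endothelium markers as a list did not share this direction. Of the 13 tested, 0 were called and 5 had a positive difference, with a median log2 difference of -0.16 and a range of -5.71 to 2.95. The list sums overlapped, at 143, 384.5 and 272.9 CPM in spleen and 114.6, 147.7 and 285.1 CPM in thymus.

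The remaining 3 are predicted or non-coding entries. Gm45234 had no count in any spleen library and was at 1.18, 1.74 and 1.18 CPM in thymus, at least 7.89-fold lower in spleen when each spleen library is set to 3 counts (adjusted p = 0.00706). A930030B08Rik was at 0.174, 0.232 and 0.228 CPM against 3.95, 1.49 and 0.704 CPM (log2 difference -3.21, adjusted p = 0.0347) and at 19.1 to 29.8 CPM in wild-type thymocytes. Gm15513, annotated within an intron on the sense strand, was at 1.83, 2.49 and 1.48 CPM against 11.4, 5.96 and 6.42 CPM (log2 difference -2.03, adjusted p = 0.0490). Where such entries overlap other genes, the division of reads between them is an estimate.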

How the data were processed

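RNA of 12 mouse libraries (LN3 spleen, LN3 thymus, wild-type thymocytes, wild-type CD8+ T cells, 3 each) was measured by poly(A) RNA sequencing. The deposited estimated counts per gene were made with kallisto 0.46.1 against GRCm38, and FastQC and DESeq2 are named as well, per the submitters' processing notes. All 652212 count values were whole numbers. The authors also deposited variance-stabilized values on a log2 scale, used here in an alternative only. Genes were filtered with edgeR's filterByExpr and scaled by TMM. Group means of all 12 libraries were fitted with edgeR 4.0.16 (R 4.3.3, quasi-likelihood test, 8 residual degrees of freedom), and spleen was contrasted with thymus within LN3. Calls used a Benjamini-Hochberg adjusted p under 0.05 over 20897 genes, and adjusted p-values in the report are from this test. Log2 intervals are 95% intervals of the fit. The test was checked on simulated data. Alternatives used DESeq2 1.42.0 and limma 3.58.1, other scalings and filters, covariates, a replicate block and leaving out each library.

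Coordinates are those of GENCODE M21 (GRCm38), matched by symbol for 99.1% of the genes tested, and promoters are from RefSeq (GRCm38.p6). Named genes were 15 preset leukaemia and homing genes, the 2 called members of a list with the largest change (or, with none called, the 2 with the highest mean CPM), and, outside the lists of other cells, up to 10 called genes of largest difference with at least 5 CPM in the higher group or, at 10 CPM or more in all 6 LN3 libraries, of smallest p. Immunoglobulin and T-cell receptor segments, predicted genes and pseudogenes were left out of the last 2 choices. A few further genes that these rules select are not reported here. Other genes named were chosen after their values were seen. The comparison and the gene lists were chosen with earlier results of these data known.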

Additional observations from a re-analysis of the deposited data

How the results depend on the processing

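All 34 called genes followed through the alternatives kept their direction in every one that gave a value, but their calls were kept in 5 to 16 of up to 21. With the erythroid covariate the log2 difference was 0.10 for Alas2 and 0.39 for Klf1. Both genes are members of the summed covariate, so that their fall was partly built in. For Gclm, which is not a member, the log2 difference was 0.45. The number called depended on the processing. The 145 higher and 6 lower calls became 41 and 2 with library totals as scaling, 585 and 67 in DESeq2's Wald test, 23 and 2 in limma with voom, and 212 and 14 with no filter on low counts. Leaving out 1 library at a time gave 0 to 206 higher and 0 to 10 lower calls. With other-cell markers as a covariate, with these and the replicate block, or with erythroid markers without haemoglobin, which were added after seeing the data, 0 and 0 genes were called (527, 592 and 382 had an unadjusted p under 0.05 in edgeR). The causes were not tested.

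The replicate block, with the label number as a term, gave 69 higher and 6 lower calls over 12 libraries and 99 and 3 over the 6 LN3 libraries. Deviations of same-numbered spleen and thymus libraries correlated at -0.150, -0.528 and -0.0412, and none correlated best with its own number, so the numbers were not taken as pairs. The highest correlations were 0.464 for spleen library 1 with thymus library 2 and 0.429 for spleen library 2 with thymus library 3, the libraries that share their leading alpha segments.

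Differences of uncalled genes changed sign as follows, where Lyz2 and Mpeg1 are members of the other-cell covariate and Gata1 of the erythroid covariate. A change under a covariate that holds the gene itself is partly built in. With other-cell markers as the covariate, without and with the replicate block, the log2 differences were -0.07 and -0.18 for Myc, -0.94 and -0.13 for Igf1, -0.56 and -0.64 for S1pr1, -0.09 and -0.11 for Itgb2, -1.26 and -1.26 for Igha, -3.28 and -3.26 for Lyz2, -1.39 and -1.29 for Mpeg1, -0.50 and -0.88 for Cd74, -0.76 and -1.12 for H2-Aa, and 0.45 and 0.64 for Ccl25. With the erythroid covariate they were 0.39 for Notch1, 0.20 for Notch3, -0.21 for Myc, -0.04 for Igf1, -0.19 for Itgal, -0.40 for Gata1, -1.50 for Tfrc, -2.30 for Lyz2, -0.84 for Mpeg1, -0.85 for Mki67, -0.99 for Top2a and 0.29 for Cd3e. Cxcr4 was at -0.07 with library totals and -0.03 with upper-quartile factors as scaling, and Lyz2 at -0.11 and -0.12 with the replicate block over 12 and 6 libraries. Leaving out 1 library at a time moved Notch1 from -0.62 to 0.03, Myc from -0.02 to 0.43, Igf1 from -0.22 to 2.37, Ccr9 from -0.03 to 2.02, Cxcr4 from -0.10 to 0.28, S1pr1 from -0.88 to 1.45, Tfrc from -0.22 to 0.71, Ccl25 from -0.42 to 0.05 and Lyz2 from -1.05 to 1.42. The median over all genes moved from -0.05 to -0.185 with library totals as scaling.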
